A study of Mus musculus with 18 samples.

Results

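The CD3+CD8- fraction of liver leukocytes comprised 6 of the 18 libraries in the series, chosen by their library names and by the cell type label CD45+,CD3+,CD8-. All 48440 loci of the count table were considered, and 11197 of them passed a filter on low counts in these 6 libraries. The mice were wild-type C57BL/6J animals purchased at an age of 7 weeks, and they carried primary liver tumours induced by hydrodynamic tail vein injection of Ras and Myc oncogenes, a rapid injection of plasmid that reaches hepatocytes. Leukocytes sorted from the liver were profiled by bulk RNA-seq. Treated mice (libraries 11, 2 and 19) received the synthetic double-stranded RNA poly(I:C) with an antibody to PD-L1, and untreated mice (libraries 5, 18 and 6) received no treatment. All 6 libraries share the tumour model, the wild-type genotype and the batch label. The dosing notes give 4 mg/kg of poly(I:C) and 200 µg of anti-PD-L1 by intraperitoneal injection every other day for 6 doses. They also list anti-VEGF-A at 5 mg/kg, which the treatment label of these libraries does not name. The letters before the number differ for untreated 6 and treated 19 from those of the other libraries in their group, and the title of treated 11 reads 111. The labels do not say whether the 3 libraries of a group came from separate mice, so each p-value measures the spread between these libraries, which may be technical.

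CD3+CD8- T cells of the liver are mostly CD4 helper T cells, among them Foxp3+ regulatory cells and follicular helper cells, with gamma-delta and natural killer T cells beside them. Poly(I:C) is sensed by TLR3 and by the cytosolic helicase MDA5 and is a classical inducer of type I interferon, whose target genes carry the interferon-stimulated response element. Anti-PD-L1 blocks the ligand of PD-1, an inhibitory receptor of activated T cells. Under lasting antigen contact its expression is kept up, together with that of the transcription factor Tox.

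Depth ranged from 2990098 to 14250972 counts in treated libraries and from 1829155 to 4455533 in untreated libraries. In treated 2, 84.0% of counts fell on 5 abundant loci (Rn18s-rs5, mt-Rnr1, mt-Rnr2, Lars2 and Gm15564, most of them ribosomal RNA), which left 1654913 counts elsewhere. The other 5 libraries had 0.723% to 1.95% there. Mitochondrial mRNA took 11.3%, 5.09% and 25.5% of the remaining counts in treated 11, 2 and 19, against 4.19%, 33.3% and 11.9% in untreated 5, 18 and 6. Within each group the values follow the replicates in that order throughout, and CPM are read counts scaled to library size after TMM normalisation. A count of 0 allows a level of up to 0.168 to 1.29 CPM in these libraries, taking 3 counts as the limit, which covers counting error only. Lane 2 held treated 11 with untreated 5 and 18, and lane 3 held treated 2 and 19 with untreated 6. Within a lane, 1 of the groups is therefore a single library.

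The sort genes were checked first. Cd3e, a chain of the T cell receptor complex, was measured at 258, 286 and 239.8 CPM in treated libraries, against 180.3, 108 and 229.7 CPM in untreated libraries. All 3 treated values lay above the untreated ones, by a log2 fold change of 0.60 with a standard error of 0.35, which was -0.078 by limma on FPKM. Cd4, the co-receptor of helper T cells, stood at 1010.1, 471 and 922 CPM in treated libraries, against 479, 288 and 109 CPM in untreated libraries. Treated 2 lay just under untreated 5, so the groups overlapped, and the log2 fold change was 1.45 with a standard error of 0.57, 1.07 without untreated 6 and 1.72 without treated 2. Foxp3, the master factor of regulatory T cells, was measured at 5.32, 18.2 and 15.2 CPM in treated libraries, against 20.3, 9.28 and 18.1 CPM in untreated libraries, with overlapping groups and a log2 fold change of -0.31 with a standard error of 0.50.

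Untreated 6 went against the CD8- label. Cd8a, a chain of the CD8 co-receptor, was measured at 12.8, 24.7 and 8.11 CPM in treated libraries, against 4.94, 6.89 and 680.4 CPM in untreated libraries. Its partner Cd8b1 stood at 10.4, 23.9 and 21.1 CPM in treated libraries, against 19.4, 16.7 and 584 CPM in untreated libraries. The other 5 libraries held both genes at 4.94 to 24.7 CPM. Haemoglobin transcripts were also highest there, with Hba-a1 at 44.8, 113 and 82.4 CPM in treated libraries, against 39.01, 44.8 and 1886 CPM in untreated libraries. With untreated 6 in the comparison, the log2 fold changes were -3.96 for Cd8a and -3.03 for Hba-a1. Without it they were 1.34 and 0.94. Scaling by library totals alone, in place of TMM, moved the median log2 fold change over all genes to -0.53, and the deposited FPKM gave -0.55, so the lists below are read against the median of all genes. Lists are given with and without untreated 6 and treated 2.

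**Figure D1:**
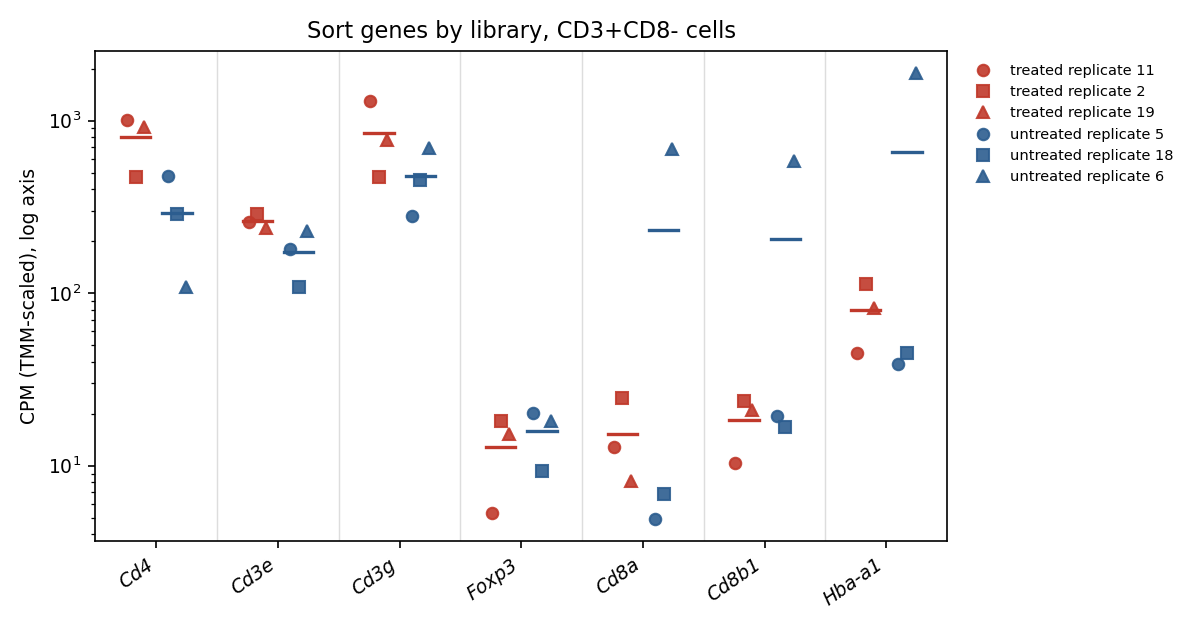
Levels of the sort genes and of the haemoglobin gene Hba-a1 in CPM on a log axis, with 1 point for each library, treated in red left of untreated in blue, and a line at each group's mean. Untreated 6 stands alone for Cd8a, Cd8b1 and Hba-a1, while all 3 treated libraries lie above the untreated ones for Cd3e.

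No gene passed the test of treatment. The edgeR quasi-likelihood test with Benjamini-Hochberg adjustment called 0 of 11197 genes, which is 0% of those tested, and the smallest adjusted p was 0.9998. An unadjusted p below 0.05 was reached by 121 genes with higher and 77 genes with lower levels in treated libraries, which are 1.08% and 0.688% of those tested. All 3 treated libraries lay above all 3 untreated ones for 314 genes (2.8%) and below them for 146 genes (1.3%). Limma with voom weights called 0 genes. DESeq2 called 2: Abca13, a large lipid transporter, on the higher side and the Ly49 pseudogene Klra13-ps on the lower. Without untreated 6 the edgeR test called 0 genes with a smallest adjusted p of 0.219, without treated 2 it called 0 with 0.304, and without both 0 with 0.597. An exact permutation test of a single value over 3 against 3 libraries cannot go below 0.10 two-sided. The values below are thus descriptions of genes and lists, none of which was called by the edgeR test, and every adjusted p is 0.9998 or higher in the comparison of all 6 libraries.

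Abca13, one of the 5 genes of smallest unadjusted p on the higher side, stood at 41.1, 36.8 and 13.8 CPM in treated libraries, against 4.16, 3.71 and 8.60 CPM in untreated libraries. Ly6g and Wfdc21, both neutrophil genes, and Nanos1 and Map2 were the others. Nanos1, an RNA-binding repressor of translation, was measured at 42.8, 13.4 and 14.2 CPM in treated libraries, against 5.85, 5.04 and 7.31 CPM in untreated libraries. Map2, a microtubule-associated protein best known from neurons, stood at 27.1, 14.6 and 5.09 CPM in treated libraries, against 4.29, 1.86 and 3.44 CPM in untreated libraries. None of these genes overlapped between the groups, and treated 11 held the highest value of each. On the lower side the 5 genes were Klra13-ps, Samd3, Cd209a, Adgrg5 and Klre1. Klra13-ps stood at 1.94, 7.69 and 1.51 CPM in treated libraries, against 31.5, 23.3 and 23.2 CPM in untreated libraries, a log2 fold change of -2.99 with a standard error of 0.61. It lies in the Ly49 cluster, whose near-identical members can share reads, so its level is uncertain. Samd3 was measured at 19.6, 23.1 and 16.8 CPM in treated libraries, against 33.3, 46.7 and 70.96 CPM in untreated libraries. Adgrg5, an adhesion G protein-coupled receptor of lymphocytes, stood at 2.42, 6.88 and 4.31 CPM in treated libraries, against 12.4, 7.42 and 43.4 CPM in untreated libraries, with its highest value in untreated 6. Without untreated 6 and treated 2, the 5 genes of smallest unadjusted p were Camp, Itgb2l, Ltf, Ngp and Cd177 on the higher side, all of neutrophil granules or surface, and Klra13-ps, Klra8, Klra4, Klra14-ps and Klrc2 on the lower side, all in the natural killer gene complex. Itgb2l, a beta integrin chain of neutrophils, had a log2 fold change of 3.26 there and 1.99 with all 6 libraries.

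Genes of helper identity were for the most part at higher levels in treated libraries, without a call. Of 9 listed genes, 8 were tested, 7 had a positive log2 fold change, and the median was 0.60, beside -0.02 over all genes tested. Cd4 and Icos, 2 of the 8, reached an unadjusted p below 0.05, beside 1.08% of all genes on the higher side. The median was 0.54 without untreated 6 and 0.63 without treated 2. When each library was left out in turn it ranged from 0.23 without treated 11 to 1.06 without untreated 18. Icos, the inducible costimulator, stood at 316, 93.9 and 80.6 CPM in treated libraries, against 73.1, 88.6 and 43.4 CPM in untreated libraries. Treated 11 was far above the rest, and the log2 fold change of 1.25 was 0.35 without it. The CD30 ligand gene Tnfsf8 stood at 303, 68.8 and 33.7 CPM in treated libraries, against 48.1, 56.7 and 61.1 CPM in untreated libraries, again with treated 11 highest and with treated 19 lowest. Zbtb7b, which encodes the CD4 lineage factor ThPOK, was measured at 12.6, 17.4 and 28.4 CPM in treated libraries, against 35.2, 13.5 and 25.4 CPM in untreated libraries, and had the only negative fold change of the list. Among 18 pan-T cell genes, 12 had a positive value and the median was 0.21, -0.18 with library totals alone and -0.43 by FPKM. Without untreated 6 and treated 2 all 18 were positive, with a median of 0.66. Leaving out 1 library moved the median from 0.056 without treated 19 to 0.54 without untreated 6. It was 0.53 within lane 2 and -0.18 within lane 3, where untreated 6 is the only untreated library. In bulk RNA a larger share of cells of a type and more RNA per cell cannot be told apart.

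Follicular helper genes had a median log2 fold change of 0.55 over 13 tested members, 9 of them positive, and one of -0.17 by FPKM. The median ranged from 0.34 without treated 11 to 0.83 without untreated 6. Il21, Icos and Tox2, 3 of the 13, reached an unadjusted p below 0.05 on the higher side, beside 1.08% of all genes. Icos is also a member of the helper list. Il21 (ENSMUSG00000027718.8, chromosome 3, 37222759 to 37232636), the cytokine by which follicular helper cells support B cells, stood at 235, 24.7 and 7.21 CPM in treated libraries, against 17.9, 2.65 and 2.58 CPM in untreated libraries. Treated 11 exceeded every other library, treated 2 lay just above the untreated range and treated 19 lay inside it. Its log2 fold change was 3.41 with a standard error of 1.22, and 0.92 without treated 11. Cxcr5, the receptor that guides these cells to B cell follicles, was measured at 23.2, 15.8 and 13.4 CPM in treated libraries, against 13.4, 5.83 and 11.2 CPM in untreated libraries. Treated 19 and untreated 5 were at the same level. Tox2, a factor of follicular helper cells related to Tox, stood at 16.9, 4.86 and 9.23 CPM in treated libraries, against 5.85, 1.33 and 3.44 CPM in untreated libraries, with treated 2 below untreated 5. Bcl6, their lineage-defining repressor, was measured at 23.5, 24.7 and 21.1 CPM in treated libraries, against 30.3, 25.5 and 13.8 CPM in untreated libraries, with a log2 fold change of -0.02. The cytokine, the chemokine receptor and Tox2 thus lay higher on average, and the defining repressor did not.

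Genes of inhibitory receptors and exhaustion, a list that shares Tox2 with the follicular helper list, leaned the same way. Of 26 members tested, 22 had a positive fold change, and the median was 0.51, about 0 with library totals alone and -0.18 by FPKM. It was 0.68 without untreated 6, 0.50 without treated 2, 0.78 without both and 0.36 without treated 11. Tox, Tox2 and Prdm1, 3 of the 26, reached an unadjusted p below 0.05 on the higher side, beside 1.08% of all genes. Tox (ENSMUSG00000041272.11, chromosome 4, 6686353 to 6991557), the factor that installs the exhausted state, stood at 391, 120.2 and 140.4 CPM in treated libraries, against 58.9, 22.5 and 90.7 CPM in untreated libraries. All treated values exceeded all untreated ones, and the log2 fold change was 1.93 with a standard error of 0.59. It was 2.41 without untreated 6, 2.21 without treated 2 and 1.19 without treated 11, positive each time.

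Prdm1, which encodes the effector repressor Blimp-1, was measured at 50.3, 39.2 and 38.3 CPM in treated libraries, against 30.2, 17.5 and 18.9 CPM in untreated libraries, again without overlap. Its log2 fold change was 0.93 with a standard error of 0.32. Pdcd1, which encodes PD-1, stood at 239, 103 and 129.9 CPM in treated libraries, against 52.3, 13.5 and 163 CPM in untreated libraries. Untreated 6, the library with CD8 transcripts, held a value between those of the treated libraries, and the log2 fold change was 1.06 with it and 2.25 without it. Within lane 3, where untreated 6 is the only untreated library, the log2 fold change of Pdcd1 was -0.46. Tigit, a receptor for CD155 that competes with CD226, was measured at 216, 62.3 and 152 CPM in treated libraries, against 89.6, 29.4 and 94.6 CPM in untreated libraries. Lag3, whose product binds MHC class II, stood at 83.5, 33.6 and 63.98 CPM in treated libraries, against 41.9, 9.28 and 53.8 CPM in untreated libraries. Both overlapped between the groups, with treated 11 and 19 above untreated 5 and 18. Havcr2, which encodes TIM-3, stood at 60.02, 25.9 and 46.5 CPM in treated libraries, against 38.4, 21.2 and 50.7 CPM in untreated libraries, with little separation. Ctla4, the competitor of CD28 for B7 ligands, was measured at 93.7, 82.5 and 28.1 CPM in treated libraries, against 54.6, 37.7 and 36.6 CPM in untreated libraries. Nr4a1, an orphan receptor induced by T cell receptor signals, stood at 13.6, 40.5 and 18.4 CPM in treated libraries, against 89.1, 20.9 and 26.2 CPM in untreated libraries, with untreated 5 highest. The PD-1 ligand gene Cd274 in these cells was measured at 60.02, 54.2 and 42.6 CPM in treated libraries, against 51.5, 81.1 and 43.9 CPM in untreated libraries, with overlapping groups.

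**Figure D2:**
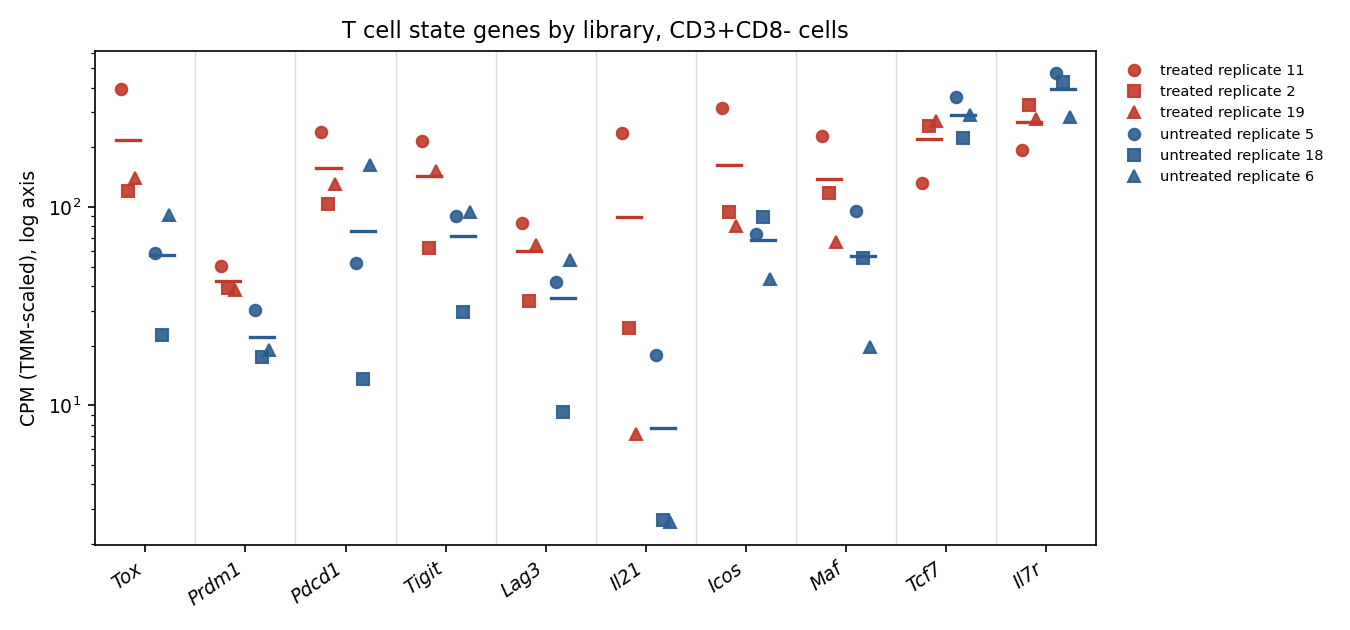
Levels of 10 T cell state genes in CPM on a log axis, with 1 point for each library, treated in red left of untreated in blue, and a line at each group's mean. Tox and Prdm1 do not overlap between the groups, Il21 spans 7.21 to 235 CPM among treated libraries, and Pdcd1 of untreated 6 lies inside the treated range.

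Regulatory T cell genes had a median log2 fold change of 0.59, with 15 of 19 tested members positive, and one of -0.10 with library totals alone and -0.30 by FPKM, both above the median of all genes there. It was 0.32 without treated 2, 0.34 without treated 11 and 0.71 without untreated 6. Foxp3 and Il2ra, the high-affinity interleukin-2 receptor chain, were among the 4 that were not positive. Il2ra stood at 37.3, 40.9 and 30.8 CPM in treated libraries, against 29.8, 74.5 and 18.9 CPM in untreated libraries. The members on the higher side included Nrp1, a semaphorin receptor found on thymus-derived regulatory cells, at 264, 103 and 64.1 CPM in treated libraries, against 88.3, 55.95 and 35.7 CPM in untreated libraries, with treated 19 inside the untreated range. Ikzf2, which encodes Helios, was measured at 162, 234 and 44.3 CPM in treated libraries, against 87.1, 70.8 and 42.1 CPM in untreated libraries. Il10, the anti-inflammatory cytokine, stood at 42.6, 18.2 and 5.59 CPM in treated libraries, against 18.98, 0.796 and 4.30 CPM in untreated libraries. Il1rl1, the interleukin-33 receptor, was measured at 21.8, 8.09 and 5.59 CPM in treated libraries, against 5.46, 5.30 and 5.16 CPM in untreated libraries . Its groups did not overlap, although treated 19 and untreated 5 were close. Several of these genes are also used by activated effector cells.

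Of 13 Th1 genes tested 7 were positive, with a median of 0.02, which ranged from -0.15 without treated 11 to 0.22 without untreated 18. Tbx21, the T-bet gene, stood at 26.1, 20.6 and 36.5 CPM in treated libraries, against 37.6, 22.01 and 47.3 CPM in untreated libraries. Ifng, the interferon-gamma gene, stood at 76.96, 53.00 and 34.00 CPM in treated libraries, against 46.7, 27.05 and 44.7 CPM in untreated libraries. Both overlapped. Gata3, the Th2 factor, was measured at 12.6, 26.3 and 15.2 CPM in treated libraries, against 22.8, 17.8 and 14.6 CPM in untreated libraries. Among 9 tested genes of Th17 and gamma-delta T cells, 7 were negative, with a median of -0.44. Without untreated 18 it was 0.0066, with 5 of the 9 positive. The gamma-delta constant gene Trdc stood at 13.8, 27.5 and 17.2 CPM in treated libraries, against 33.7, 59.7 and 9.46 CPM in untreated libraries, with untreated 6 lowest. Cd163l1, a scavenger receptor of gamma-delta T cells, stood at 0, 0.809 and 1.62 CPM in treated libraries, against 3.25, 3.45 and 3.87 CPM in untreated libraries. All treated values of Cd163l1 lay below the untreated ones, at levels near the limit that a count of 0 allows. Zbtb16, which encodes the NKT factor PLZF, stood at 2.42, 19.02 and 4.59 CPM in treated libraries, against 8.97, 9.02 and 1.29 CPM in untreated libraries, with the highest value in treated 2.

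Cytotoxic genes had a median of -0.12 over 24 tested members, 10 positive. Untreated 6 was the highest library for Gzmb and Gzmm. Gzmb, the granzyme B gene, stood at 152, 116 and 169 CPM in treated libraries, against 122, 215 and 606 CPM in untreated libraries, a log2 fold change of -1.11 with untreated 6 and -0.20 without it. Gzmm, another granzyme, was measured at 0.484, 0.405 and 2.74 CPM in treated libraries, against 2.21, 0.53 and 32.7 CPM in untreated libraries. Gzmk, a granzyme of memory-like cells, stood at 116, 59.5 and 292 CPM in treated libraries, against 57.6, 20.7 and 244 CPM in untreated libraries, where treated 19 and untreated 6 were the highest. The CD8 markers, 2 of 2 detected, summed to 23.2, 48.5 and 29.2 CPM in treated libraries, against 24.3, 23.6 and 1264 CPM in untreated libraries, and their part in the cytotoxic values was not tested. The median of the list was 0.05 without untreated 6, 0.06 without treated 2 and 0.26 without both.

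Naive and central memory genes had a median of -0.11 over 20 tested members, 12 negative, and -0.50 without both libraries in doubt. It ranged from -0.57 without treated 2 to 0.14 without treated 11. Tcf7, the TCF1 gene, stood at 133, 257 and 270.01 CPM in treated libraries, against 357, 224 and 289.9 CPM in untreated libraries, with treated 11 lowest. Il7r, the interleukin-7 receptor of resting T cells, was measured at 195, 328 and 279 CPM in treated libraries, against 472, 426 and 286 CPM in untreated libraries. The groups overlapped for both genes. All 7 genes of tissue egress had a negative fold change, with a median of -0.45, -0.13 without untreated 6 and -0.15 without treated 11, and the groups overlapped for each of them. Of the 14 tissue residency genes 9 were positive, with a median of 0.31, -0.27 with library totals alone, -0.37 by FPKM and 0.17 without treated 2. Rgs1, a brake on chemokine receptor signalling in tissue T cells, stood at 356, 359 and 277 CPM in treated libraries, against 182, 159.9 and 257 CPM in untreated libraries. Its groups did not overlap, with a log2 fold change of 0.73 with a standard error of 0.33 and one of -0.34 by FPKM.

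Type I interferon-stimulated genes were for the most part at lower levels in treated libraries, without a call. Of 51 listed genes 49 were found and tested, 10 were positive and 39 negative, and the median log2 fold change was -0.25. It was -0.30 without untreated 6, -0.26 without treated 2 and -0.38 without both. Without untreated 18, which held the highest values of Ifit1 and Rsad2, it was 0.02, with 25 of the 49 positive. An unadjusted p below 0.05 was reached by 0 members on the higher and 3 on the lower side, beside 1.08% and 0.688% of all genes. All treated libraries lay below all untreated ones for 6 members, beside 1.3% of all genes, and above them for 2, beside 2.8%.

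The 6 members with all treated values below were Irf7, Mx1, Oas3, Oasl1, Dhx58 and Xaf1. Irf7, the factor that amplifies interferon production, stood at 30.98, 43.3 and 44.5 CPM in treated libraries, against 61.6, 69.5 and 58.9 CPM in untreated libraries. Its log2 fold change was -0.68 with a standard error of 0.27. Mx1, a GTPase that restricts RNA viruses, was measured at 30.01, 26.3 and 20.9 CPM in treated libraries, against 49.9, 40.3 and 33.5 CPM in untreated libraries, a log2 fold change of -0.69 with a standard error of 0.29. Oas3, a synthetase of the oligoadenylates that activate RNase L, stood at 28.1, 41.3 and 33.9 CPM in treated libraries, against 46.8, 49.9 and 64.9 CPM in untreated libraries, a log2 fold change of -0.65 with a standard error of 0.28. Among the members above was Oas1g, an oligoadenylate synthetase, which stood at 2.66, 4.86 and 2.68 CPM in treated libraries, against 2.47, 2.12 and 2.15 CPM in untreated libraries. Isg15, a ubiquitin-like modifier, overlapped at 20.3, 23.5 and 14.6 CPM in treated libraries, against 13.9, 27.8 and 46.4 CPM in untreated libraries, with untreated 6 highest.

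Promoters are shown because the element that interferon signalling binds lies there and because members on both sides of the comparison carry it. RefSeq promoters (GRCm38.p6, 250 bases before to 50 after the gene start) were matched by symbol for 39 of the 51 listed genes. The core of the response element, GAAANNGAAA on either strand, with overlapping matches counted, was present in 20 of these 39 (51.3%), beside 1079 of all 27025 promoters (3.99%). Oas3 and Oas1g carry it and lay on opposite sides of the comparison, Oas1g by a small margin at a low level. Isg15 carries 3 overlapping copies. The promoters of Irf7, Oasl1 and Xaf1 hold no such letters in this window. Capitals mark the matches.
Oas3, chr5:120777610-120777909, minus strand: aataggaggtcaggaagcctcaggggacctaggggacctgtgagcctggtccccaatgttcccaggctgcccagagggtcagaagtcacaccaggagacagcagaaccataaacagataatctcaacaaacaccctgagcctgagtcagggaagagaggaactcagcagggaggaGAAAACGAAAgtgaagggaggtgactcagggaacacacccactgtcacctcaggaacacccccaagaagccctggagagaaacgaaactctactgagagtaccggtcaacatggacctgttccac
Oas1g, chr5:120887564-120887863, minus strand: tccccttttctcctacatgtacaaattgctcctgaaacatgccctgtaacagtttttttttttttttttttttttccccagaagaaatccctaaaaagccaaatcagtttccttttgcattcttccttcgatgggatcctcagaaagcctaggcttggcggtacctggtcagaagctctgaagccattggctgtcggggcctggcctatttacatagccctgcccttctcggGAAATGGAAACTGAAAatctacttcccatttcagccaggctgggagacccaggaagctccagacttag
Isg15, chr4:156200769-156201068, minus strand: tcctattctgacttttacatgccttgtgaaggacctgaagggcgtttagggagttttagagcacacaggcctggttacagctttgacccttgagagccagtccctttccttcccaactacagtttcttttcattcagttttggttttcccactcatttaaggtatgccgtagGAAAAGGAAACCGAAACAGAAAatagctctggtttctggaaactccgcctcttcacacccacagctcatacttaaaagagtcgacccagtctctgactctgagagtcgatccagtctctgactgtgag

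**Figure D3:**
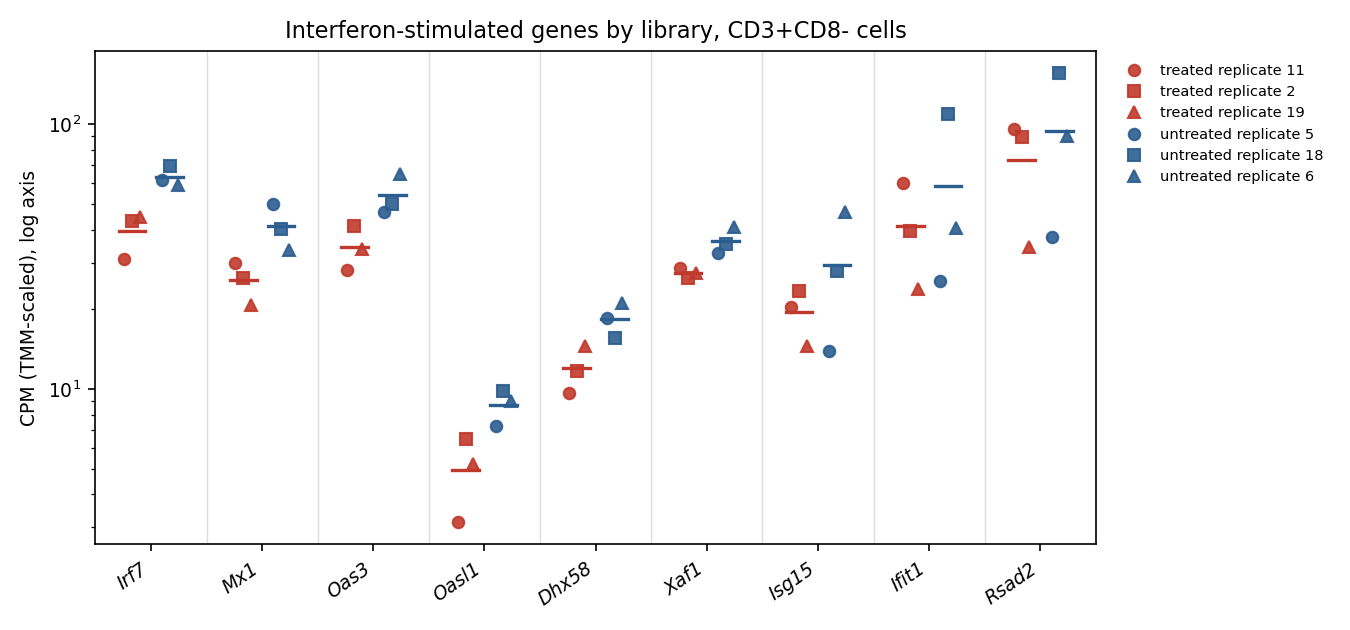
Levels of 9 interferon-stimulated genes in CPM on a log axis, with 1 point for each library, treated in red left of untreated in blue, and a line at each group's mean. All treated values of Irf7, Mx1, Oas3, Oasl1, Dhx58 and Xaf1 lie below the untreated ones, and those of Isg15, Ifit1 and Rsad2 overlap.

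Sensors of double-stranded RNA and their adaptors had a median of -0.15 over 21 tested members, 14 negative, which ranged from -0.24 without untreated 18 to -0.027 without treated 11. Ifih1, the MDA5 gene, stood at 102, 66.4 and 36.97 CPM in treated libraries, against 40.8, 71.1 and 29.7 CPM in untreated libraries. Tlr3, the endosomal sensor, stood at 2.66, 2.02 and 1.34 CPM in treated libraries, against 1.69, 2.92 and 2.15 CPM in untreated libraries. Both overlapped between the groups. Interferon-gamma-induced genes had a median of -0.05 with 12 of 27 positive, and of 0.10 with 19 positive without untreated 6. Genes of MHC class I presentation had a median of -0.05 with 5 of 19 positive. Without untreated 6 it was 0.12 with 12 positive, and without both libraries in doubt 0.18 with 15. Among 31 tested cytokine receptors and signalling genes, 24 were negative, and the median of -0.19 ranged from -0.29 without treated 2 to -0.077 without untreated 6. Ifngr1, the ligand-binding chain of the interferon-gamma receptor, stood at 164, 206 and 178 CPM in treated libraries, against 288, 321 and 357 CPM in untreated libraries. Socs3, a feedback inhibitor of cytokine receptors, was measured at 14.5, 32.4 and 31.4 CPM in treated libraries, against 43.3, 48.8 and 52.5 CPM in untreated libraries. Neither overlapped between the groups, and their log2 fold changes were -0.82 with a standard error of 0.30 and -0.88 with a standard error of 0.35.

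Immediate early genes, which T cell receptor signals and tissue dissociation both induce, had a median of -0.16 over 23 tested members and -0.78 without both libraries in doubt. It ranged from -0.76 without treated 2 to 0.099 without treated 19. Junb, a member of the AP-1 family, stood at 3.15, 10.9 and 3.75 CPM in treated libraries, against 15.7, 6.89 and 36.99 CPM in untreated libraries, with untreated 18 inside the treated range. Zfp36, which promotes decay of cytokine mRNA, was measured at 83.01, 129 and 79.3 CPM in treated libraries, against 224, 196 and 102 CPM in untreated libraries. The heat shock gene Hspa1b, also raised by tissue handling, stood at 6.05, 44.5 and 7.997 CPM in treated libraries, against 88.5, 12.5 and 47.7 CPM in untreated libraries. Untreated 5 was the highest library for Fos, Nr4a1 and Hspa1b, and treated 2 was the highest treated library for Junb, Zfp36 and Hspa1b. The part of tissue handling in these values was not tested.

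The medians of proliferation, metabolism and ribosomal protein genes changed sign with untreated 6. Cell cycle genes had a median of -0.40 over 37 tested members with all libraries, 0.06 without untreated 6 and 0.24 without both libraries in doubt. Mki67, the Ki-67 gene, stood at 172, 76.5 and 107 CPM in treated libraries, against 97.1, 129.7 and 119.99 CPM in untreated libraries, with a log2 fold change of 0.04. Genes of nuclear oxidative phosphorylation had a median of -0.12 with and 0.14 without untreated 6, glycolysis -0.18 with and 0.10 without it. Cytosolic ribosomal proteins had a median of -0.76 over 83 tested members with it and 0.14 without it. Leaving out treated 2 alone gave medians of -0.04 for cell cycle and 0.05 for nuclear oxidative phosphorylation, which also changed sign. It gave -0.27 for glycolysis and -0.71 for ribosomal proteins.

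**Figure D4:**
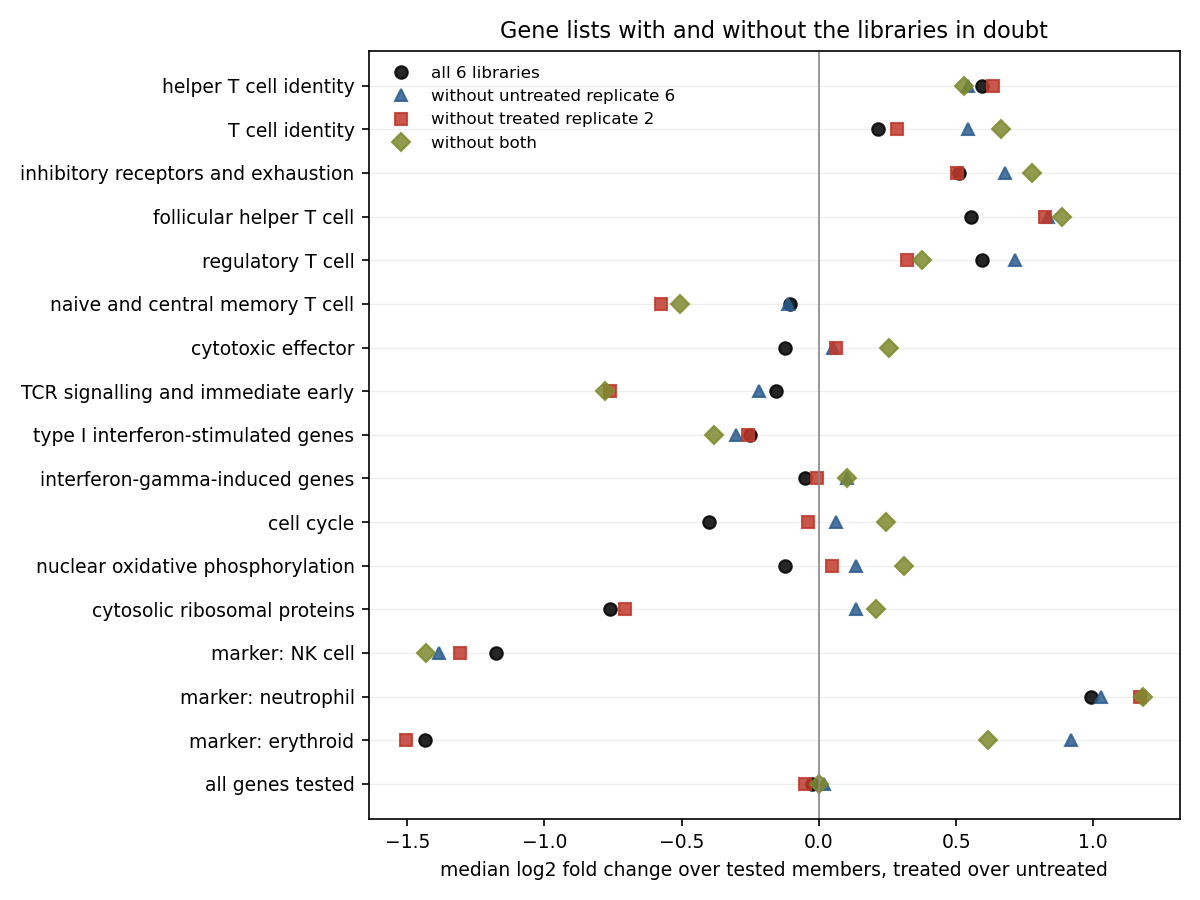
Median log2 fold change, treated over untreated, over the tested members of each list on the x axis, with the list names down the page. Symbols stand for all 6 libraries, without untreated 6, without treated 2 and without both. The medians of erythroid markers and ribosomal proteins change sign without untreated 6, and the exhaustion, neutrophil and NK cell lists keep theirs under the 4 fits shown.

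Genes listed as markers of other leukocytes were present in this CD3+ sort, and none of them was called. Which cells carried these transcripts was not tested. The neutrophil list had 16 of 19 tested members positive and a median of 0.99, which ranged from 0.65 without treated 11 to 1.62 without untreated 18. On the higher side 6 of the 19 reached an unadjusted p below 0.05, beside 1.08% of all genes, and 5 did not overlap, beside 2.8%. Its 24 genes summed to 35920.00, 15642 and 13769 CPM in treated libraries, against 4084, 16674 and 6752 CPM in untreated libraries, so that untreated 18 lay inside the treated range. Ngp, a granule protein, stood at 2166, 945 and 939.7 CPM in treated libraries, against 155, 175 and 615 CPM in untreated libraries. Ltf, the lactotransferrin of secondary granules, was measured at 1433, 856 and 780.1 CPM in treated libraries, against 131, 101 and 552 CPM in untreated libraries. Their log2 fold changes were 2.10 with a standard error of 0.65 and 1.97 with a standard error of 0.67, and 3.04 and 3.14 without untreated 6, which held the highest untreated value of both. Ly6g, the surface marker of mouse neutrophils, stood at 104, 38.03 and 45.1 CPM in treated libraries, against 8.58, 18.3 and 18.5 CPM in untreated libraries. Wfdc21, a whey acidic protein family member, was measured at 108, 67.2 and 57.99 CPM in treated libraries, against 15.2, 37.4 and 33.5 CPM in untreated libraries. S100a8, an abundant alarmin of mature neutrophils, stood at 11858, 4051 and 4032 CPM in treated libraries, against 973, 5602 and 1466 CPM in untreated libraries . Its groups overlapped, with untreated 18 above treated 2 and 19. The primary granule genes Elane, Mpo and Prtn3 stayed between 0 and 2.15 CPM. The part of neutrophils in the other results was not tested.

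Natural killer cell genes were for the most part at lower levels in treated libraries, without a call. Of 18 tested members 16 were negative, the median was -1.18, and 7 reached an unadjusted p below 0.05 on the lower side, beside 0.688% of all genes. The list summed to 1008, 1003 and 1005 CPM in treated libraries, against 1351, 2307 and 1153 CPM in untreated libraries, without overlap. Its members differ in which untreated libraries are high. Klrk1, which encodes NKG2D, stood at 92.9, 106 and 53.97 CPM in treated libraries, against 127, 305 and 185 CPM in untreated libraries. Its groups did not overlap. Klre1, a lectin-like receptor, stood at 24.2, 30.3 and 19.9 CPM in treated libraries, against 61.9, 86.2 and 29.7 CPM in untreated libraries, with untreated 6 below treated 2. Ncr1, the activating receptor NKp46 that defines NK cells, was measured at 18.9, 29.9 and 17.6 CPM in treated libraries, against 63.97, 88.6 and 6.45 CPM in untreated libraries. Klra8, the Ly49H receptor of cytomegalovirus-specific NK cells, stood at 6.53, 6.88 and 5.09 CPM in treated libraries, against 40.96, 44.5 and 3.44 CPM in untreated libraries. Untreated 5 and 18 held the high values of Ncr1 and Klra8, and untreated 6 was the lowest library for both. The log2 fold change of Klra8 was -2.30, -2.81 without untreated 6 and 0.80 within lane 3, where untreated 6 is the only untreated library. The median of the list was -1.38 without untreated 6, -0.68 without untreated 18 and 0.68 within lane 3. All 10 tested Ly49 receptors had a negative fold change with 6 libraries, against 5 positive without untreated 18, and as near-identical copies they may share reads.

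**Figure D5:**
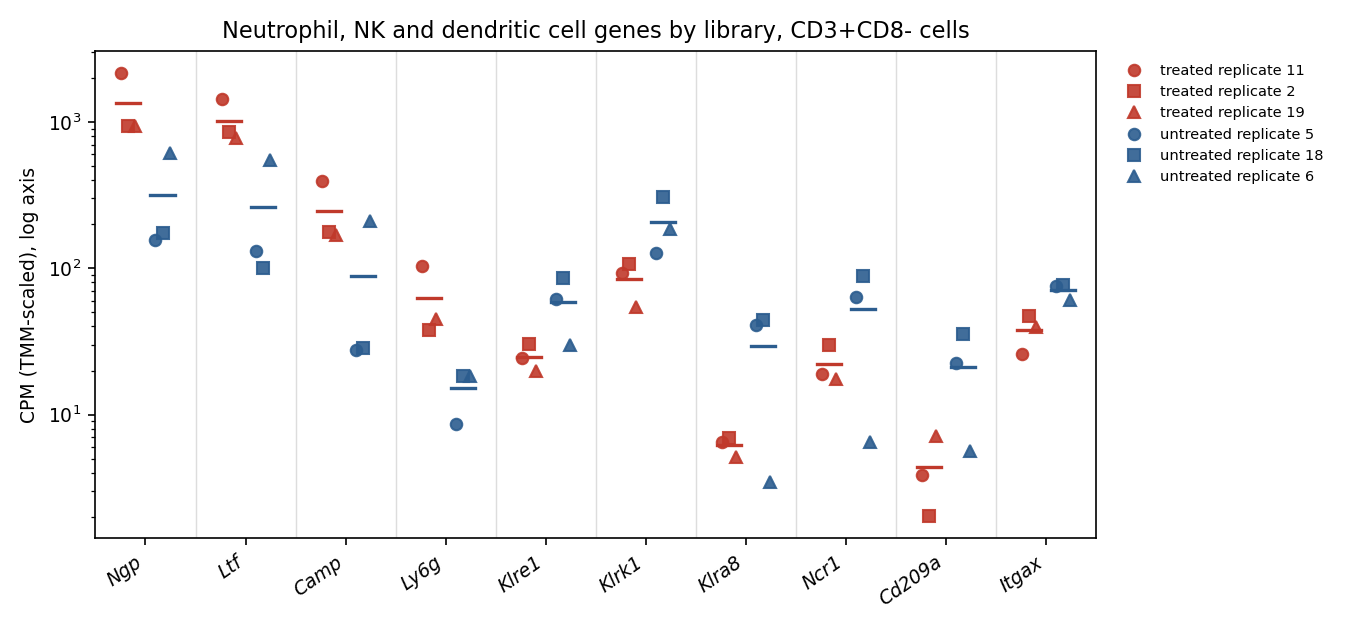
Levels of 4 neutrophil genes, 4 NK cell genes and 2 dendritic cell genes in CPM on a log axis, with 1 point for each library, treated in red left of untreated in blue, and a line at each group's mean. Treated values of Ngp, Ltf and Ly6g lie above all untreated ones, and untreated 6 is the lowest library for Klra8 and Ncr1.

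Conventional dendritic cell genes had 8 of 9 tested members negative, with a median of -0.62, -1.02 without untreated 6 and 0.71 within lane 3, where 5 of the 9 were positive. Cd209a, a DC-SIGN homologue, stood at 3.87, 2.02 and 7.16 CPM in treated libraries, against 22.5, 35.5 and 5.59 CPM in untreated libraries. Itgax, the CD11c integrin chain, was measured at 26.1, 47.3 and 39.6 CPM in treated libraries, against 75.8, 77.2 and 61.1 CPM in untreated libraries, without overlap. The list summed to 177, 330.1 and 310.2 CPM in treated libraries, against 435, 399.9 and 282 CPM in untreated libraries. Plasmacytoid dendritic cell genes had 11 of 13 negative, with a median of -0.82 and 0.79 within lane 3. Siglech, their surface lectin, stood at 130.4, 83.3 and 165 CPM in treated libraries, against 226, 423 and 49.03 CPM in untreated libraries. These cells are a main source of type I interferon, and their part in the interferon-stimulated genes was not tested. B cell markers had a median of 0.14, which ranged from -0.32 without treated 19 to 0.43 without treated 11. Hepatocyte markers had one of -0.01, which ranged from -0.43 without treated 19 to 1.48 without untreated 18. The hepatocyte list summed to 688, 1415 and 2202 CPM in treated libraries, against 347, 3342 and 873 CPM in untreated libraries. Erythroid markers summed to 1108, 1260.3 and 733 CPM in treated libraries, against 308, 1021 and 10863 CPM in untreated libraries.

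The effect of treatment was then set against that in the other sorted fractions of the series, in a fit of all 18 libraries. The test of the difference called 0 of 13181 genes (0%) against CD3+CD8+ cells and 0 of 13181 (0%) against CD3-CD8- cells. An unadjusted p below 0.05 was reached by 478 and 503 genes, and the smallest adjusted p was 0.0943 and 0.477. DESeq2 called 116 genes against CD3+CD8+ cells, of which 71 were small non-coding RNA loci, and 28 against CD3-CD8- cells, of which 14 were. Named by their small adjusted p against CD3+CD8+ cells were Snord15a, Snora23, Scarna6, Scarna10 and Snord17. All 5 are small nucleolar or Cajal body RNAs. In the CD3+CD8- fraction they were high in treated 2 alone, with Scarna10 at 0, 663 and 0.615 CPM in treated libraries, against 0.78, 0.265 and 0.43 CPM in untreated libraries. On the scale of the 18 libraries, CD3+CD8+ cells held Scarna10 at 0.167, 0 and 0.849 CPM in treated libraries 11, 2 and 19, against 802, 0.209 and 394 CPM in untreated libraries 1, 5 and 18, so that untreated 1 and 18 were high there. Its log2 difference was 18.19 with all libraries, 9.26 without treated 2 and -1.45 without the 4 libraries in doubt, which include untreated CD3+CD8+ 1 and 18. With most libraries at or near 0, these fitted values are no measure of size. Without treated 2, 0 genes were called in either difference and the smallest adjusted p against CD3+CD8+ cells was 0.91.

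Gzmb had a log2 fold change of -1.09 in CD3+CD8- cells, 2.02 in CD3+CD8+ cells and 1.72 in CD3-CD8- cells. The difference from CD3+CD8+ cells was -3.11 (SE 0.66, edgeR adjusted p = 0.0943), and -2.28 without untreated 6 (adjusted p = 0.3005). It was -2.98 without treated 2 (edgeR adjusted p = 0.9095) and -2.36 with the replicate number as a block (edgeR adjusted p = 0.873). Without the 4 libraries in doubt it was -1.67. On the scale of the 18 libraries, Gzmb stood in CD3+CD8+ cells at 1295, 867 and 1149 CPM in treated libraries 11, 2 and 19, against 243, 343 and 228 CPM in untreated libraries 1, 5 and 18. Those groups were well apart, while in CD3+CD8- cells untreated 6 and 18 stood above all treated libraries. Mx1 had one of -0.68 in CD3+CD8- cells, -0.01 in CD3+CD8+ cells and 0.95 in CD3-CD8- cells. The difference from CD3-CD8- cells was -1.63 (SE 0.32, edgeR adjusted p = 0.477). In CD3-CD8- cells Mx1 stood at 44.6, 36.4 and 28.1 CPM in treated libraries 2, 11 and 19, against 19.9, 17.6 and 18.8 CPM in untreated libraries 1, 5 and 18. Vmp1, a membrane protein of autophagy, had a difference of -1.69 from CD3-CD8- cells at the same adjusted p, and Xlr4c, an X-linked lymphocyte-regulated gene, one of -2.36. Zfp945, a zinc finger gene, had one of -1.56 at an adjusted p of 0.922. Tox had positive fold changes in all 3 fractions, at 1.97 in CD3+CD8-, 2.15 in CD3+CD8+ and 2.53 in CD3-CD8- cells. For Ngp the fold changes were 2.14 in CD3+CD8-, 0.04 in CD3+CD8+ and 6.69 in CD3-CD8- cells. The level of Ngp was 146 to 2146 CPM over the CD3+CD8- libraries, 2.72 to 35.5 CPM over CD3+CD8+ and 1.95 to 808 CPM over CD3-CD8- libraries. The value of 6.69 had a standard error of 1.40, with treated 11 far above the rest. Treated CD3-CD8- libraries 2, 11 and 19 held Ngp at 20.6, 808 and 62.4 CPM. Untreated libraries 1, 5 and 18 of that fraction held it at 2.39, 1.95 and 4.34 CPM. The interferon-stimulated list had medians of -0.24 in CD3+CD8-, -0.06 in CD3+CD8+ and 0.26 in CD3-CD8- cells, and a difference between fractions was called for none of its genes.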

How the data were processed

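The authors deposited 1 table of raw counts and 1 table of FPKM (fragments scaled by transcript length and depth) for the series. Per the submitters' processing notes, HTSeq 0.13.5, Cufflinks 2.2.1, Trim Galore 0.6.7 and DESeq2 were used, and per the labels' protocols RNA was isolated with RNeasy Plus Micro and libraries were made with TruSeq v2. No aligner or build is named in the sources used here. Locus positions come from the deposited FPKM table, whose chromosomes matched GENCODE vM21 (GRCm38) for 100.0% and starts for 90.5% of 47864 identifiers. The deposited counts had 22 further columns, which were not used. Every library was assigned by its name and labels.

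Counts of the 6 CD3+CD8- libraries were filtered with filterByExpr, TMM-scaled and tested with edgeR 4.0.16 (quasi-likelihood, two-sided, R 4.3.3), with Benjamini-Hochberg adjustment over all genes tested and calls made under an adjusted p of 0.05. Contrasts between fractions came from a fit of all 18 libraries. Alternatives used DESeq2 1.42.0, limma 3.58.1 with voom weights, limma on log2(FPKM + 1), keeping genes whose mean FPKM reached 1, other scalings and filters, lane, and fewer libraries. Both edgeR fits were run on simulated counts with the same spread for every gene and no library in doubt. That simulation does not measure power or error in the present libraries. Depth limits precision most in untreated 6 and in treated 2 outside its abundant loci.

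Libraries of different fractions share numbers within a treatment. Deviations from the group means correlated between same-numbered CD3+CD8- and CD3-CD8- libraries in all 5 pairs (r = 0.168 to 0.556). Libraries of unlike number reached 0.247, which lies within that range. The labels do not say whether a number stands for a mouse, so a pairing of these samples is not established. Treated and untreated libraries share no number. The genes named are a fixed set of sort and state genes, the 5 of smallest unadjusted p each way whose mean log2 CPM reached 3, the 3 of smallest p from each list, and the 5 of smallest adjusted p for each difference, without unnamed gene models and receptor segments. Other list members are named for their function. The lists and the libraries in doubt were chosen with earlier results of these data known. Of the 51 interferon-stimulated genes written, 2 were not used here, and some genes of the fixed set and the lists are not reported here.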

Additional observations from a re-analysis of the deposited data

How the results depend on the processing

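The count of genes called for treatment in CD3+CD8- cells was 0 with all 6 libraries and 0 to 0 when each library was left out in turn, with a smallest adjusted p of 0.219 to 0.9999 (edgeR). It was 7 with library totals alone and 82 by limma on log2(FPKM + 1), settings in which the median over all genes was -0.53 and -0.55, and 5 and 71 of those calls were small non-coding RNA loci. It was 195 with no filter on low counts, of which 101 were highest in treated 2. It was 2 by DESeq2, 24 within lane 2, of which 23 were highest in treated 11, and 2 within lane 3. In those lanes the single library is assumed to vary like the other group. The count was 0 with DESeq2 size factors, with a stricter filter, without non-coding loci and with all 18 libraries. It was also 0 with limma voom (308 at an unadjusted p below 0.05) and with lane as a covariate (596). Removing non-coding loci, immunoglobulin genes, mitochondrial genes and hepatocyte and erythroid markers together also gave 0. Markers of neutrophils, NK cells and dendritic cells stayed in that fit. The difference from CD3+CD8+ cells was called for 116 genes by DESeq2 and for 0 to 79 when a CD3+CD8- library was left out. It was called for 43 of 14113 genes without treated 11 and for 79 of 13262 without treated 19. Small non-coding RNA loci made up 38 of those 43 and 71 of those 79. The difference from CD3-CD8- cells was called for 28 by DESeq2 and for 0 to 0 when a CD3+CD8- library was left out. With the replicate number as a block (replicate block), 0 genes were called in each difference, as without it. Against CD3-CD8- cells the block raised the genes at an unadjusted p below 0.05 from 503 to 1493. The smallest edgeR adjusted p went from 0.477 to 0.239 there, and from 0.0943 to 0.456 against CD3+CD8+ cells. Same-numbered CD3+CD8- and CD3+CD8+ libraries correlated at -0.04 to 0.49, and not every library correlated best with its own number. A pairing is not established there either. Of 59 genes with a fold change followed through the settings, 43 kept their sign throughout. By limma on FPKM the sign reversed for Cd3e (-0.078), Ctla4 (-0.23) and Rgs1 (-0.34). Within lane 3 it reversed for Pdcd1 (-0.46), Lag3 (-0.11), Zfp36 (0.038), Klra4 (0.74), Klra8 (0.80), Camp (-0.27), Klk1 (0.48) and Gzmk (-0.44), and within lane 2 for Cd8a (1.14) and Hba-a1 (0.12). When each library was left out in turn, Cd8a ranged from -4.53 to 1.34, Cd8b1 from -4.02 to 0.0305 and Hba-a1 from -3.59 to 0.94, each positive without untreated 6, Foxp3 from -0.62 to 0.065, positive without treated 11, and Gzmk from -0.28, without treated 19, to 1.998. Without untreated 6 and treated 2 together the sign reversed for Cd8a (0.81), Hba-a1 (0.60) and Gzmm (0.26), and Cd8a was 0.049 by limma voom. The cause was not tested. Of 837 list medians under these settings, 121 moved by more than the spread (SD) of the list's median level over the 6 libraries. They came from 37 of the 42 lists, so that only 5 lists moved under none of the settings.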

Other observations

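None of the genes below was called by edgeR. Costimulatory genes had 10 of 16 tested members positive, with a median log2 fold change of 0.26, which ranged from 0.06 without treated 11 to 0.34 without treated 19 when each library was left out in turn. Slamf1, a self-ligand of lymphocytes that favours cytokine production by helper cells, stood at 69.2, 44.9 and 40.7 CPM in treated libraries, against 32.4, 33.9 and 27.5 CPM in untreated libraries, without overlap. NKT cell genes had 5 of 8 positive, with a median of 0.29 and a range from -0.14 without treated 11 to 0.40 without untreated 18. Klrb1c, which encodes NK1.1, stood at 75.3, 65.5 and 80.03 CPM in treated libraries, against 104, 290.4 and 32.7 CPM in untreated libraries, with untreated 18 highest. Th2 genes had 3 of 5 positive and a median of 0.54, -0.40 without untreated 6 and treated 2. Effector cytokines had 8 of 12 positive, with a median of 0.15. It was 0.0665 without untreated 6, 0.0015 with 6 of 12 positive without treated 2, and -0.0059 without both. Chemokines and their receptors had 10 of 20 positive, with a median of -0.01 and a range from -0.12 without treated 11 to 0.075 without untreated 18. Cxcr6, which retains T cells in the liver, stood at 522, 249.6 and 398 CPM in treated libraries, against 167, 415 and 277 CPM in untreated libraries, with untreated 18 above treated 2 and 19. Ccl5, a chemokine of memory and cytotoxic T cells, was measured at 586, 488 and 1235 CPM in treated libraries, against 420.4, 189 and 1675 CPM in untreated libraries, and untreated 6, the library with CD8 transcripts, was highest.

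Ligands of PD-1 and CD28 had 4 of 8 tested members positive and a median of 0.01, with a range from -0.14 without treated 2 to 0.16 without untreated 18. T cell receptor variable segments had 14 of 26 positive, with a median of 0.08 and a range from -0.13 without untreated 5 to 0.26 without treated 11. Immunoglobulin variable segments had 60 of 85 positive, with a median of 0.45. Without untreated 6 it was 0.0439 with 45 positive, without both libraries in doubt 0.0173 with 44, within lane 2 -0.47 and within lane 3 3.49. Igha, the IgA heavy chain of plasma cells, stood at 85.7, 44.1 and 282 CPM in treated libraries, against 645, 128 and 107 CPM in untreated libraries, with untreated 5 highest. Kupffer cell genes had 8 of 13 positive, with a median of 0.12 and a range from -0.13 without treated 19 to 0.66 without untreated 18. Monocyte genes had 6 of 12, with a median of -0.18 and a range from -0.50 without treated 11 to 0.15 without untreated 5. Ace, which marks non-classical monocytes, stood at 22.5, 21.4 and 36.5 CPM in treated libraries, against 131, 39.2 and 37.4 CPM in untreated libraries, without overlap. Heat shock genes had 10 of 11 negative and a median of -0.50, which was -0.0015 without untreated 6. Mitochondrially encoded mRNAs had 12 of 13 negative and a median of -0.36, ranging from -1.32 without treated 19 to 1.004 without untreated 18.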
